A study of Homo sapiens with 12 samples.

Results

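The comparison described here set 3 arrays of H9 cells labelled as differentiated for 6 days with retinoic acid (RA) against 3 arrays of undifferentiated H9 cells given doxycycline (Dox), 6 of the 12 arrays of the series. The arrays were chosen by their titles. H9 is a long-established human embryonic stem cell line. Per the labels, all cells came from passages 28 to 35 and carried a Tet-on construct, which switches on the nuclear receptor GCNF (gene NR6A1) when Dox is added. The stem cell group (Dox d0) was grown in mTeSR on a matrix-coated plate with 1 µg/ml Dox for 4 days. The day 6 group (RA-labelled d6) was grown in DMEM/F12 with 15% serum and 1 µM RA for 6 days. The 2 groups thus differed in medium, serum, time and agent at once, and the parts of these in any difference cannot be told apart. The other groups, 3 arrays each, were untreated stem cells (d0) and cells labelled as differentiated for 6 days with 1 µg/ml Dox (Dox-labelled d6). They entered the fit and are given beside values of the compared groups. Dox-treated cells without the construct were not analysed here.

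GCNF is an orphan receptor that binds a direct repeat of the half-site AGGTCA with no spacer and is known as a repressor of pluripotency genes as stem cells differentiate. RA binds the RAR receptors and induces, among others, the enzymes that degrade it and genes of the HOX clusters. Serum holds growth factors, lipids and other signals that reach the SRF and YAP pathways. Human embryonic stem cells keep their state through FGF and nodal or activin signals and divide with a short first gap phase.

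Values are array intensities on a linear scale, and differences are on the scale log2(intensity + 16), where the added 16 shrinks the change of dim genes. Rose, fell and called are used of genes with an adjusted p under 0.05 in limma, with Benjamini-Hochberg adjustment over 19775 genes. Differences are given as RA-labelled d6 minus Dox d0, with their SE, and n was 3 arrays per group. Arrays of 1 group correlated with each other at 0.980 to 0.982 after the log2 step, none being a copy of another, and arrays of Dox d0 with those of RA-labelled d6 at 0.934 to 0.936. Array medians were 64.2 to 78.0 intensity units, 72.4 to 78.0 in Dox d0 and 66.2 to 69.2 in RA-labelled d6. Precision is limited by the 3 arrays per group. The labels call replicates biological but not how the cultures were kept apart, and the p-values cover no more than the spread seen among the arrays. The ratio of 3′ to 5′ control probe sets of ACTB, a sign of RNA integrity, was 3.85 to 3.87 on Dox d0 arrays and 2.41 to 2.92 on RA-labelled arrays. For GAPDH it was 1.58 to 1.69 and 1.27 to 1.43. Both moved with the groups, and their part in the results was not tested. In bulk RNA, fewer cells of a type and less RNA per cell cannot be told apart.

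NR6A1 was read by 7 probe sets, which did not give 1 answer for this comparison. The one most induced by Dox at d0 read 606, 660.1 and 580.1 in Dox d0 and 355, 395 and 258 in RA-labelled d6, against 14.0 to 46.9 in untreated d0. RA-labelled arrays thus lay below Dox d0 and above untreated cells, with a difference of -0.86 ± 0.30 (adjusted p = 0.047 in limma over all probe sets). Another 2 mRNA-derived probe sets did not differ beyond the spread, at 458 and 406 (-0.16, adjusted p = 0.454) and at 665 and 566 (-0.22, adjusted p = 0.322). The remaining mRNA-derived one, the dimmest, read 106, 108 and 109 in Dox d0 and 3.6, 4.7 and 31.5 in RA-labelled d6, a fall of -2.21 ± 0.46 (adjusted p = 0.0031). All 3 probe sets designed from expressed sequence tags fell, by -2.38, -2.28 and -2.41. The brightest of these, which stands for the gene in the counts below, read 2710, 2715 and 3180 in Dox d0 and 503, 509.8 and 571 in RA-labelled d6. NR6A1 signal was therefore similar in the compared groups for only some mRNA-derived probe sets. The RA label names no Dox, yet the probe set most induced by Dox read 336 ± 70.9 in RA-labelled and 29.2 ± 13.7 in Dox-labelled d6. That probe set and the 2 that did not differ from Dox d0 go against the day 6 labels (Dox-labelled minus RA-labelled -2.99, -1.21 and -1.61). The RA-induced genes described further on do so too. The 3 probe sets from expressed sequence tags were instead higher in Dox-labelled d6 (0.99, 0.79 and 0.89, limma adjusted p = 0.0020 to 0.0058). The dimmest probe set did not differ between the day 6 groups (-0.17, limma adjusted p = 0.87). Whether the labels of the day 6 groups were exchanged was not tested, and every direction below rests on those labels.

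**Figure D1:**
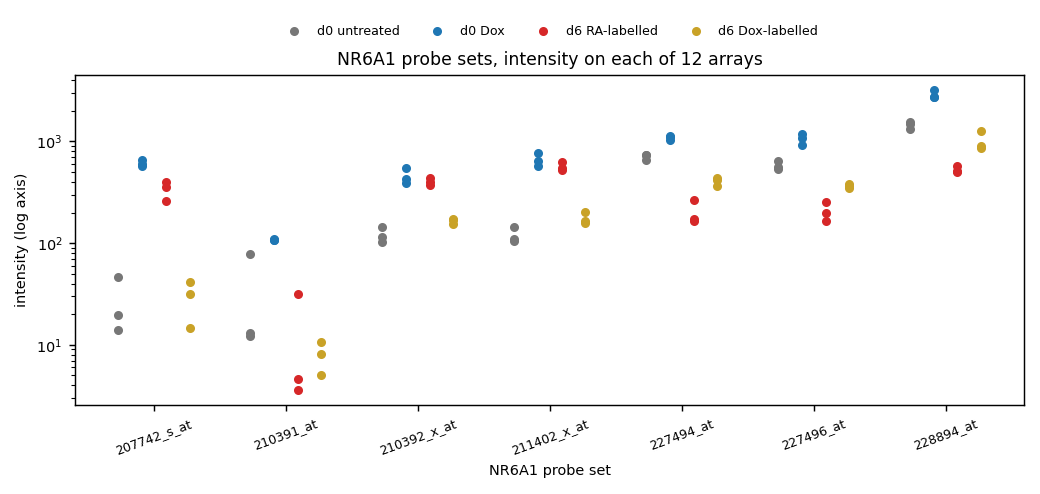
Intensity (log axis) of the 7 NR6A1 probe sets on each of the 12 arrays, 3 points per group, coloured by group. RA-labelled d6 points lie among or near those of Dox d0 for the third and the fourth probe set from the left, below them for the first, and below all other groups for the 3 at the right.

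Nearly as many genes rose as fell from Dox d0 to RA-labelled d6, and the change was broad. Of 19775 genes, 9543 were called (48.3%), 4539 higher (23.0%) and 5004 lower (25.3%). At least 2-fold apart as well as called were 1731 higher (8.75%) and 1964 lower (9.93%). At least 4-fold were 464 higher and 577 lower, and at least 16-fold 21 and 22. The median difference over all genes was -0.03, and median centring of the arrays moved it to 0.09. These shares are the background for each gene list below. Each gene is read by its brightest probe set, and averaging all probe sets of a gene moved the fold of 81 of 240 genes named or checked by over 1.5 times, to a smaller difference in 79 of them.

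The largest rise among genes with non-overlapping arrays was that of LOX, the lysyl oxidase that crosslinks collagen and elastin. It read 309, 350.8 and 277 in Dox d0 and 15524, 14644 and 13430 in RA-labelled d6, a difference of 5.47 ± 0.10 or 44.5-fold (adjusted p = 8e-10). CDKN2B, an inhibitor of cyclin D kinases, followed with 159, 158 and 121 against 6916, 7090 and 6566 (5.42 ± 0.11). With probe sets averaged the differences were 4.37 for LOX and 3.88 for CDKN2B. Arrays that do not overlap were a condition of this choice and were found for 55.8% of all genes. BHLHE40, a repressor of transcription tied to stress and the clock, rose 33.6-fold and MICAL2, an oxidase of actin filaments, 29.7-fold. THBD, the thrombin receptor thrombomodulin, went from 55.3 ± 10.6 to 1961 ± 181. IL11, a cytokine of the IL-6 family, read 385, 312 and 398 against 8075, 7453 and 8043 (4.38 ± 0.14).

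The largest fall was that of LEFTY1, a secreted nodal inhibitor that nodal itself induces. It read 15224, 14617 and 15148 in Dox d0 and 403, 319 and 322 in RA-labelled d6, a difference of -5.37 ± 0.14 (adjusted p = 1.6e-09). NTS, the neuropeptide neurotensin, fell from 10622 ± 178 to 273 ± 98.0. RMST, a long noncoding RNA of stem and neural cells, fell from 894 ± 42.2 to 8.28 ± 4.05. DAZL, an RNA-binding protein of germ cells, fell from 992 ± 64.2 to 15.2 ± 8.91, and NPTX1, a neuronal pentraxin, from 887 ± 68.8 to 12.3 ± 8.68. For these 3 genes the day 6 arrays lay at the floor of the signal, so the size of their difference depends on the added 16, and RMST differed by -2.12 with probe sets averaged. SCNN1A, a subunit of the epithelial sodium channel, fell from 2551 ± 184 to 120.0 ± 39.2. Its difference was -1.32 with probe sets averaged, and 1 of its other 2 probe sets went the other way uncalled (0.77). LINC00458, a noncoding RNA of stem cells, fell from 1218 ± 112 to 41.1 ± 2.72. FOXH1, the DNA-binding partner of SMADs downstream of nodal, fell from 2428 ± 82.0 to 72.3 ± 16.2 (-4.81 ± 0.16).

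**Figure D2:**
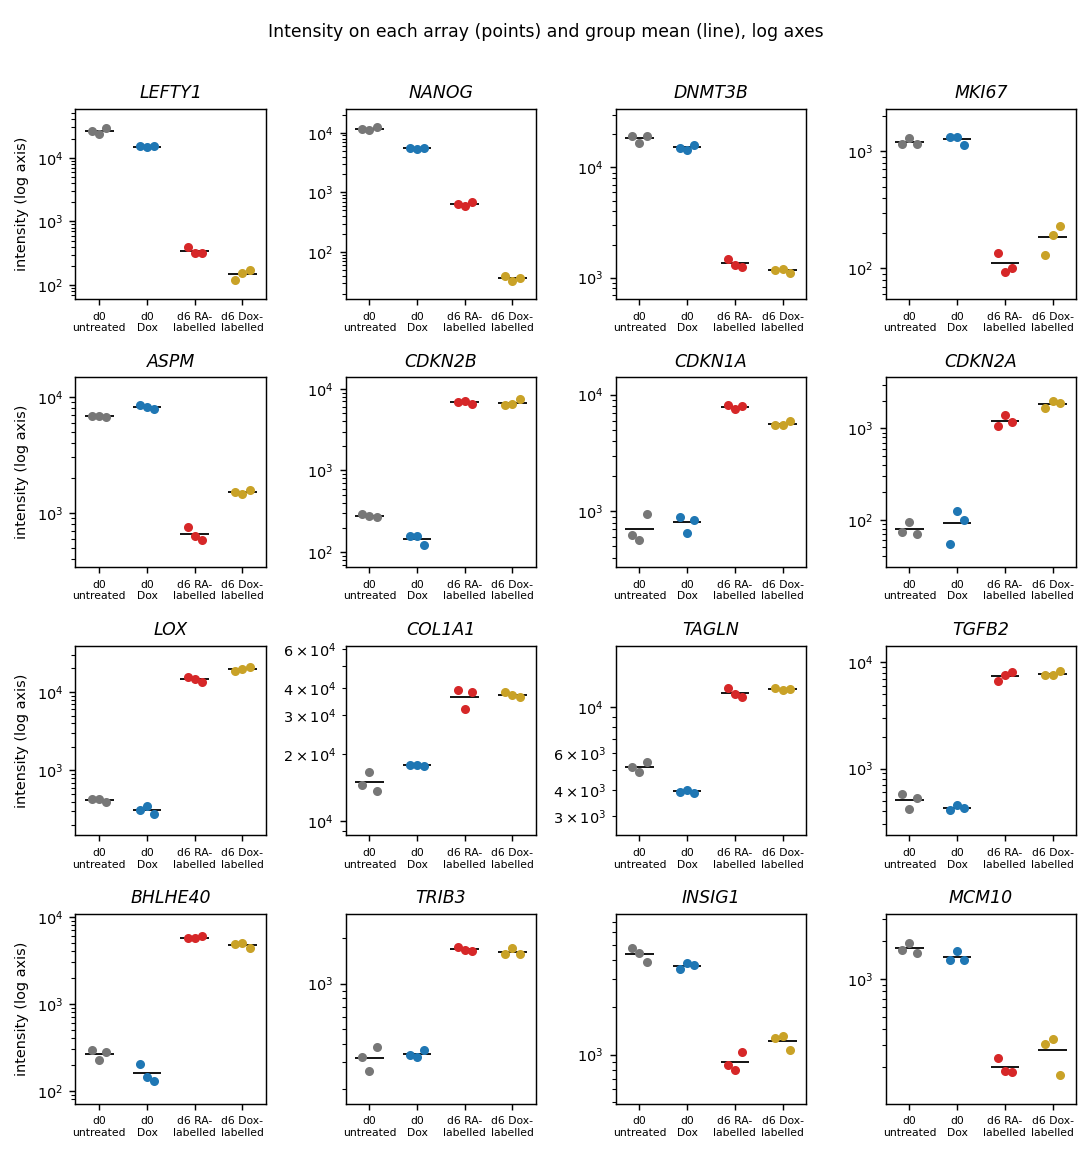
Intensity (log axes) on each array, 3 points per group with the group mean as a line, of 16 genes from the gene lists and the largest changes. In each panel the 3 RA-labelled d6 points lie apart from the 3 Dox d0 points, as for LEFTY1 (348 against 14996) and CDKN2B (6857 against 146), and for most panels near the Dox-labelled d6 points.

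Pluripotency genes fell almost as a body. Of 40 measured, 36 fell, 1 rose and 3 were not called, with 33 at least 2-fold lower and a median difference of -2.26. NANOG, a core factor of the stem cell state, read 5496, 5345 and 5562 in Dox d0 and 639, 594 and 686 in RA-labelled d6 (-3.07 ± 0.08). SOX2, the partner of OCT4, read 22360, 20699 and 21799 against 2038, 2367 and 1913 (-3.35 ± 0.10). L1TD1, an RNA-binding protein of stem cells, fell 12.3-fold, and DNMT3B, a de novo DNA methyltransferase, 11.2-fold. MYCN, a growth-promoting factor of stem and neural cells, read 4975, 4872 and 4557 against 514, 404 and 429 (-3.38 ± 0.12) and stood higher again in Dox-labelled d6, at 2520 ± 323. All 7 measured markers of undifferentiated cells fell, LIN28A (-1.67) and ZFP42 (-1.16) least.

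The stem cell genes fell to different levels, and several were still well above the floor. LIN28A, an RNA-binding protein that blocks let-7 processing, remained at 6381, 7296 and 7595, and NANOG at 639.8 was well above the 36.7 ± 3.28 of Dox-labelled d6 (Dox-labelled minus RA-labelled d6 -3.64, adjusted p = 2.5e-09). PRDM14, a repressor of differentiation genes, stood at 266 ± 20.2 in RA-labelled and 14.1 ± 6.44 in Dox-labelled arrays. For these 2 genes the RA-labelled d6 arrays lay between stem cells and Dox-labelled arrays. TBX3, a T-box factor, was the 1 member that rose (0.83), and 3 of its other 6 probe sets went the other way uncalled. Its call was lost with probe sets averaged (0.21, limma adjusted p = 0.16). The probe set shared by POU5F1, which encodes OCT4, and its near-identical copies read 7896, 7975 and 8005 in Dox d0 and 917, 848 and 936 in RA-labelled d6 (-3.12 ± 0.08, adjusted p = 5.6e-09 over all probe sets). Signal of POU5F1 itself cannot be told apart in it. The probe sets assigned to the copies POU5F1P3, POU5F1P4 and POU5F1B differed by -3.03, -3.02 and -3.32 and may read the same transcript.

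A probe set annotated to MIR302B, chosen after its values were seen, fell from 33420 ± 1386 to 6864 ± 602 (-2.28 ± 0.10, adjusted p = 2.9e-08). Its miRNA cluster is known for high activity in human embryonic stem cells. The mature miRNAs were not measured. The 4 mature 3p miRNAs of the cluster are shown, from RefSeq (GRCh38.p14), because they share 1 seed, bases 2 to 8 in capitals.
hsa-miR-302a-3p: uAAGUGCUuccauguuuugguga
hsa-miR-302b-3p: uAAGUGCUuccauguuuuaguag
hsa-miR-302c-3p: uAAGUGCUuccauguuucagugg
hsa-miR-302d-3p: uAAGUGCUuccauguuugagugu
They differ from each other only towards the 3′ end. All lie on the minus strand of chromosome 4, that of miR-302b-3p at chr4:112648489-112648511.

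Members of the nodal and TGF-beta list moved both ways. Of 30 measured, 18 rose, 9 fell and 3 were not called, with a median of 0.65. NODAL, the ligand, read 607, 551 and 543 in Dox d0 and 74.0, 69.1 and 43.3 in RA-labelled d6 (-2.92 ± 0.26), after 4240 ± 305 in untreated d0. The nodal targets and antagonists LEFTY1 and CER1 (-3.10), the cofactor FOXH1 and the ligand GDF3 (-2.95) fell with it. FST, the activin antagonist follistatin, read 13698, 13704 and 13676 against 3384, 3298 and 3074 (-2.07 ± 0.07). Among those that rose, the ligand TGFB2 read 409.7, 450.0 and 429 against 6653, 7568 and 8188 (4.07 ± 0.12), and TGFB1 rose from 237 ± 33.0 to 2761 ± 151. LTBP2, a matrix protein of the latent TGF-beta binding family, rose 19.8-fold, and TGFBI, a TGF-beta-induced matrix protein, 12.9-fold. SMAD7, an inhibitor that TGF-beta signals induce, rose from 869.6 ± 40.0 to 2609 ± 110. INHBA, the activin A subunit, rose from 44.3 ± 16.4 to 449 ± 55.5.

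Genes of cell division fell together. Of 40 genes of mitosis, 40 fell and 39 of them at least 2-fold, with a median of -2.73. In 40 of 40 every Dox d0 array lay above every RA-labelled array, and arrays were likewise fully apart, in either direction, for 55.8% of all genes. ASPM, which organises spindle poles, read 8556, 8169 and 7828 in Dox d0 and 753, 630.1 and 584 in RA-labelled d6 (-3.62 ± 0.09). MKI67, the proliferation marker Ki-67, read 1336, 1313 and 1143 against 136, 94.2 and 102 (-3.35 ± 0.18), and its probe set brightest on the 6 compared arrays differed by -2.32. The checkpoint kinases BUB1 and BUB1B fell 10.1-fold and 9.29-fold. CCNB2, a mitotic cyclin, read 6144, 6172 and 6220 against 1035, 866 and 874 (-2.72 ± 0.10). BUB3, a spindle checkpoint protein, fell least (-0.97).

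Of 43 genes of DNA replication and entry into S phase, 37 fell, 5 rose and 1 was not called, with a median of -1.83. E2F8, an atypical repressor of E2F targets, fell from 658 ± 16.6 to 58.3 ± 20.3. MCM5, a subunit of the replicative helicase, read 2148, 2285 and 2265 against 297, 352 and 269 (-2.81 ± 0.10). The loading factor CDT1 and the replication factor MCM10 fell 6.99-fold and 6.96-fold. PCNA, the sliding clamp, remained at 6229 ± 582 after 11955 ± 357. The 5 that rose were the D cyclins CCND1 (0.92), CCND2 (0.69) and CCND3 (2.19), their kinase CDK6 (1.48) and the clamp loader subunit RFC5 (0.48). For CDK6, 1 of its other 6 probe sets was called in the opposite direction (-1.14), and the other probe set of CCND3 went the other way without being called.

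Inhibitors of the cell cycle and genes of the p53 response rose. Of 26 measured, 21 rose, 2 fell and 3 were not called, with a median of 1.36. CDKN1A, the p21 inhibitor and p53 target, read 901, 658 and 851 in Dox d0 and 8186, 7457 and 7980 in RA-labelled d6 (3.28 ± 0.18). CDKN2A, which encodes p16 and ARF next to CDKN2B, read 54.8, 126 and 99.1 against 1065, 1381 and 1178 (3.54 ± 0.23). Every RA-labelled array lay several-fold above every Dox d0 array in both genes, which were picked among the largest rises of the list. That separation thus adds no support, and arrays did not overlap, in either direction, for 55.8% of all genes. GADD45B, a stress-induced growth arrest gene, rose 14.4-fold and GDF15, a secreted stress factor, 5.59-fold. CDKN1C, the p57 inhibitor, did not pass, at 2235 ± 259 and 2016 ± 184 (adjusted p = 0.26).

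The mitosis genes were lower in RA-labelled than in Dox-labelled d6 arrays too. Of 40, 36 were called higher in Dox-labelled d6 and none lower, with a median of 1.07, where 13.7% of all genes were called higher and 12.2% lower. Of the 43 replication genes, 28 were higher and 1 was lower. ASPM read 1519 ± 64 in Dox-labelled arrays against 656 ± 86.9 in RA-labelled ones (1.20, adjusted p = 9.5e-06). The inhibitors CDKN2B and CDKN1A read 6763 ± 612 and 5652 ± 289 in Dox-labelled arrays, with no call between the day 6 groups (adjusted p = 0.91 and 0.075).

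The stretches around the start sites of 3 mitosis genes are shown because the promoters of such genes are known to hold CCAAT boxes and a CHR element, which repressor complexes bind in resting cells. These motifs were searched after the values were seen. Capitals mark CCAAT and TTTGAA on either strand (ATTGG and TTCAAA on the strand shown), from 150 bases before to 50 after the start, 5′ to 3′ on the gene's strand (RefSeq, GRCh38.p14).
ASPM, chr1:197146620-197146819, minus strand: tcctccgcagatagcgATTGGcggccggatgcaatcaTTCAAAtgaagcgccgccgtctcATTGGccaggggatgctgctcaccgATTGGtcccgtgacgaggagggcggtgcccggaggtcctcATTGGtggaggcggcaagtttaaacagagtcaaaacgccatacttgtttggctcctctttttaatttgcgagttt
MKI67, chr10:128126374-128126573, minus strand: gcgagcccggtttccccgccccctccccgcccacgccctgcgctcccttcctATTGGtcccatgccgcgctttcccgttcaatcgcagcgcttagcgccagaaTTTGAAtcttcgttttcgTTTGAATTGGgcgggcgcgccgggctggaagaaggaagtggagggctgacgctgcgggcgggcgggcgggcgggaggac
CCNB2, chr15:59104996-59105195, plus strand: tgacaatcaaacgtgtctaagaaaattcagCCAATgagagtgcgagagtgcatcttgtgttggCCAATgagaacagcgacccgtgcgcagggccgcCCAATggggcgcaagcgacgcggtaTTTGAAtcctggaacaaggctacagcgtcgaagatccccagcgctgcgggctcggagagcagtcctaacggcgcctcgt
In MKI67 a CHR match runs into a CCAAT match on the other strand, so that the capitals join. Over windows of 300 bases, from 250 before to 50 after the start, TTTGAA stood in 22 of 33 promoters of mitosis genes that RefSeq's table held (66.7%) and in 11.9% of 15382 promoters of tested genes. CCAAT stood in 24 of 33 (72.7%) against 36.1%, and both in 17 of 33 (51.5%) against 4.82%. In 36 promoters of replication genes TTTGAA was found in 1 and CCAAT in 17. A match is a string of letters and no measured binding.

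Mesenchymal, matrix and contractile genes rose. Of 35 mesenchymal genes, 27 rose, 2 fell and 6 were not called, with a median of 1.75. SNAI2, the transcription factor SLUG, read 134, 154 and 116 in Dox d0 and 2285, 2357 and 2151 in RA-labelled d6 (3.93 ± 0.11). CAV2, a caveolar coat protein, rose by 4.00 and CD44, the hyaluronan receptor, by 3.52. TWIST2, a bHLH factor, fell from 92.7 ± 1.55 to 28.4 ± 10.6, with its other probe set going the other way uncalled, and THY1, a surface protein of both stem cells and fibroblasts, fell from 3972 ± 169 to 2042 ± 59.3. DCN, the proteoglycan decorin, did not pass, at 71.8 and 74.4. It was the 1 of 9 markers of mesenchyme and smooth muscle not called, with the other 8 higher.

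Of 44 collagen and matrix genes, 28 rose, 9 fell and 7 were not called, with a median of 0.75. COL5A1, a chain of fibrillar collagen V, read 1948, 1935 and 1934 against 23223, 21853 and 23178 (3.54 ± 0.06). LOXL4, a lysyl oxidase, read 173, 164 and 178 against 3762, 3238 and 3996 (4.29 ± 0.13). COL1A1, the main chain of collagen I, was already at 17917 ± 86.3 in Dox d0 and reached 36524 ± 3958 (1.02 ± 0.10 or 2.03-fold, and 4.29-fold with probe sets averaged). Among those that fell, COL2A1, the cartilage collagen, went from 1247 ± 13.8 to 259.6 ± 30.4, and NID2, a basement membrane linker, from 1169 ± 37.5 to 494 ± 205.

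Of 38 contractile genes, 23 rose, 4 fell and 11 were not called, with a median of 0.79. CNN1, smooth muscle calponin, read 345, 313 and 282 against 3885, 4139 and 3780 (3.59 ± 0.15). ACTA2, smooth muscle actin, read 1499, 1328 and 1477 against 9569, 10072 and 9598 (2.75 ± 0.07). The 4 that fell were RYR2 (-2.16), the calcium release channel of heart muscle, the troponins TNNI3 (-1.71) and TNNT1 (-0.76), and MYLK (-0.48), the myosin light chain kinase. Heavy chains of heart muscle were near the floor in both groups, with MYH6 at 27.0 and 19.1 and MYH7 at 26.2 and 33.5.

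Immediate early genes and targets of SRF and YAP rose, with 28 of 32 higher, 1 lower and a median of 1.5. ANKRD1, a YAP target, read 618, 657 and 599.9 against 9738, 9132 and 9791 (3.90 ± 0.10). JUNB, an AP-1 subunit, rose from 45.6 ± 28.1 to 758 ± 15.8, FOS from 15.2 ± 9.52 to 268 ± 34.7 and FOSL2 from 106 ± 23.7 to 1128 ± 62.5. YAP1, the coactivator itself, was the 1 that fell, by 0.21, a call lost in 6 alternatives, among them median centring and leaving out Dox d0 replicate 2 or 3 or RA-labelled d6 replicate 2 (limma adjusted p = 0.0502 to 0.605).

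The start sites of ACTG2, a smooth muscle actin, and ACTC1, the cardiac one, are shown because the CArG box, the site of SRF, is known in actin promoters. Intensities of ACTG2 were 523, 485 and 569.5 in Dox d0 and 1575, 1595 and 1424 in RA-labelled d6 (1.52 ± 0.07), and those of ACTC1 8834 ± 207 and 17737 ± 769 (1.00 ± 0.06). Capitals mark CArG boxes, with the same bounds and source as above.
ACTG2, chr2:73892858-73893057, plus strand: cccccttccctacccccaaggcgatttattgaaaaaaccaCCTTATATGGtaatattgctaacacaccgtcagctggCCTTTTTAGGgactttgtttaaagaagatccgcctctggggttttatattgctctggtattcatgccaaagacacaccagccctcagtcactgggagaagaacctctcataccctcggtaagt
ACTC1, chr15:34795500-34795699, minus strand: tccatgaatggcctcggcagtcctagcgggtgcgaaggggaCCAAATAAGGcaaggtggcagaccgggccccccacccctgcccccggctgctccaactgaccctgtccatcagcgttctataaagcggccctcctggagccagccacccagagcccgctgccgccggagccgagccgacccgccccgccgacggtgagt
ACTG2 held 2 CArG boxes and ACTC1 held 1. Over windows of 300 bases a CArG box stood in 8 of 28 contractile promoters (28.6%) and in 3 of 26 promoters of the serum list (11.5%), against 1.21% of all 15382. Among genes called and at least 2-fold higher it stood in 2.12%, and among those at least 2-fold lower in 0.847%. The direct repeat AGGTCAAGGTCA stood in 1 of the 15382 promoters and the extended half-site TCAAGGTCA in 41 (0.267%), 4 of them among 1534 promoters of genes at least 2-fold lower (0.261%).

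**Figure D3:**
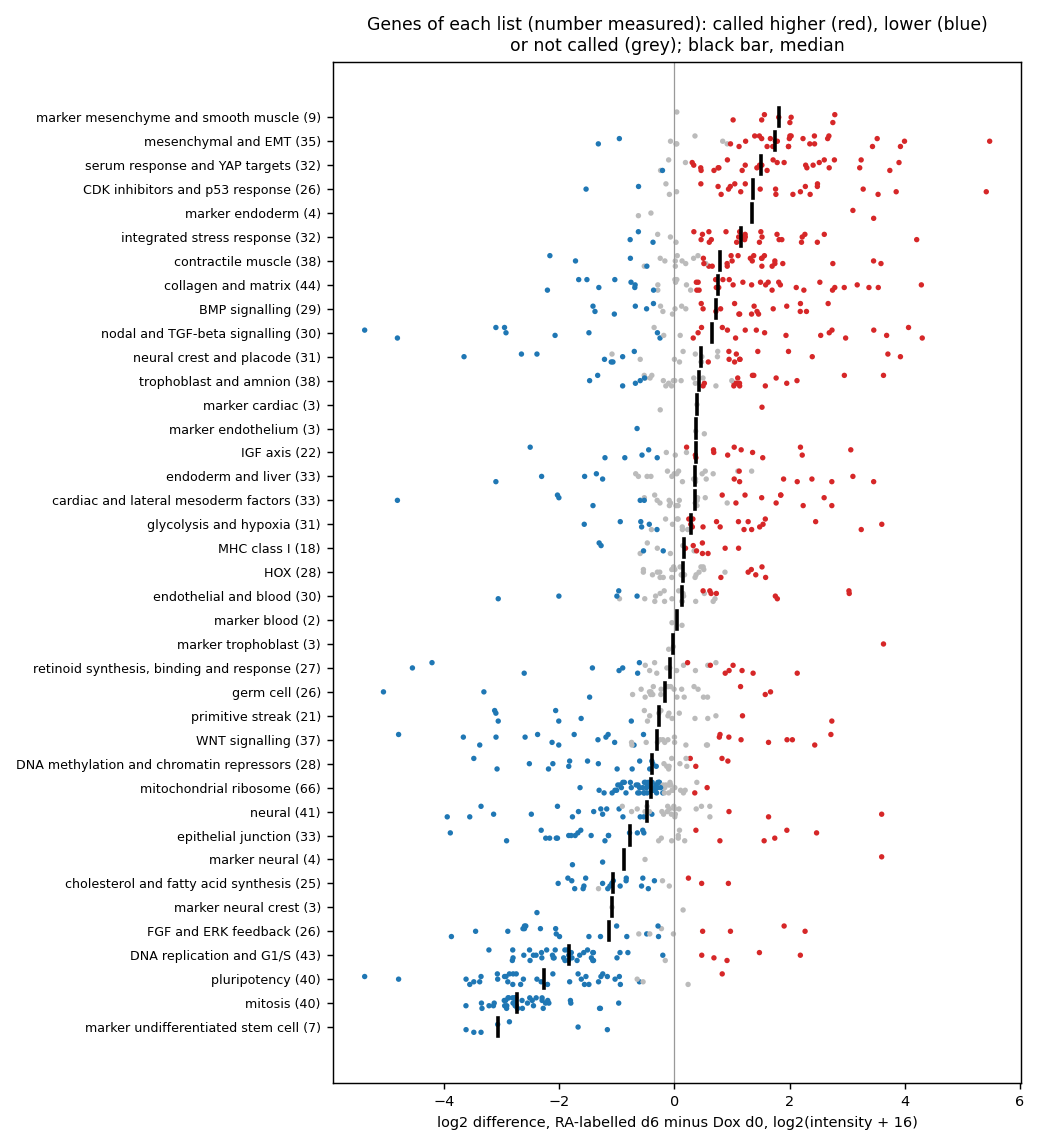
Difference of each gene (RA-labelled d6 minus Dox d0, on the log2(intensity + 16) scale) in each gene list, with the number measured in brackets, points red where called higher, blue where called lower and grey where not called, and the median as a black bar. Medians ran from -3.07 for stem cell markers and -2.73 for mitosis to 1.75 for mesenchymal genes and 1.81 for mesenchyme and smooth muscle markers, and lists share some genes.

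FGF genes fell. Of 26 measured, 18 fell, 4 rose and 4 were not called, with a median of -1.14. FGFBP3, an FGF carrier, read 6443, 6268 and 6405 in Dox d0 and 428, 390 and 447 in RA-labelled d6 (-3.87 ± 0.11). The receptors FGFR2 and FGFR3 fell 10.9-fold and 6.18-fold, or 3.52-fold and 2.99-fold with probe sets averaged. Untreated d0 read 1576 ± 62.7 for FGFBP3, 5287 ± 262 for FGFR2 and 2241 ± 18.8 for FGFR3. Against untreated d0, RA-labelled d6 thus differed less, by -1.86, -3.02 and -0.78. The ligands FGF4 (-2.89) and FGF8 (-2.06) fell to 33.9 ± 24.9 and 4.85 ± 1.77. The 4 that rose were the factors ETV5 (2.27) and EGR1 (1.91), the phosphatase DUSP5 (0.49) and the inhibitor SPRED2 (0.97), whose other 2 probe sets went the other way uncalled and whose call was lost with probe sets averaged (0.29, limma adjusted p = 0.0504).

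Of 37 WNT genes, 9 were higher (24.3%), 15 lower (40.5%) and 13 not called (median -0.29). Of all genes, 23.0% rose and 25.3% fell, so the share that rose was near that of all genes. The secreted inhibitors SFRP2 (-4.79 ± 0.07) and SFRP1 (-3.66 ± 0.08) and the receptor FZD5 (-3.38) fell most. SFRP2 read 8260, 8297 and 7972 against 298, 290 and 257. WNT5B, a ligand, rose from 128 to 929, and DKK3, a secreted protein of the dickkopf family, from 2966 ± 304 to 16090 ± 389.7.

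Among BMP genes 17 of 29 rose, 6 fell and 6 were not called (median 0.72). BMPR2, the type 2 receptor, read 1235, 1148 and 1221 against 8025, 7476 and 7704 (2.67 ± 0.07). GREM1, a secreted BMP antagonist, rose from 2453 ± 363 to 11168 ± 256. The ligand BMP4 fell from 997 ± 111 to 364 ± 30.6, and the targets ID2 (-1.38), ID1 (-1.04) and ID4 (-0.68) fell as well. Untreated d0 read 465 ± 71.5 for BMP4, 2077.5 ± 51.1 for ID2, 7367 ± 31.4 for ID1 and 888 ± 81.7 for ID4. Against these, RA-labelled d6 was not called for ID2, at 2144 ± 302 (limma adjusted p = 0.814). It was higher than untreated d0 for ID4, at 2130 ± 42.8. For BMP4 and ID1 it was lower than untreated d0 too (limma adjusted p = 0.0456 and 1.4e-06). Of 22 IGF genes, 13 rose and 6 fell (median 0.37), led by the binding protein IGFBP7 (3.06) and by IGFBPL1 (-2.50).

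Some of the genes that fell, grouped after their values were seen, had been raised by Dox in stem cells, where 12.9% of all genes were called against untreated d0. The 2 comparisons share the Dox d0 arrays, so values are set side by side only. SHISA2, an inhibitor of FGF and WNT receptor transport, read 603 ± 31.4 in d0, 3777 ± 410.0 in Dox d0 and 119 ± 12.7 in RA-labelled d6. SFRP1 read 5264 ± 263, 20417 ± 1022 and 1600 ± 125. EDNRB, an endothelin receptor, read 3447 ± 51.4, 8953 ± 277 and 704 ± 119, and DKK1, a WNT inhibitor, 343 ± 41.0, 2164 ± 80.4 and 346 ± 22.0. In SHISA2, SFRP1 and EDNRB the RA-labelled arrays lay below untreated cells too, whereas in DKK1 they lay at their level.

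Epithelial genes fell more often than they rose, with 20 of 33 lower, 6 higher and 7 not called (median -0.78). CDH1, E-cadherin, read 10703, 10529 and 11365 in Dox d0 and 1534, 1395 and 1365 in RA-labelled d6 (-2.91 ± 0.08). ESRP1, an epithelial splicing regulator, fell from 2757 ± 179 to 178 ± 63.8. The keratins KRT8 (2.47) and KRT18 (1.74) of simple epithelia rose, KRT8 from 1751 ± 82.2 to 9775 ± 469, and CLDN4 (1.95) and JUP (1.56) rose with them. CDH1 and ESRP1 were higher in Dox-labelled d6, at 5702 ± 509.8 and 1174 ± 158 (differences from RA-labelled d6 1.98 and 2.66).

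Genes of the RA response rose no more often than they fell in the arrays labelled RA, and rose more often in those labelled Dox. Of 27 retinoid genes, 8 rose and 8 fell (29.6% each) and 11 were not called, with a median of -0.08. Of all genes, 23.0% rose and 25.3% fell. CYP26A1, the RA-degrading enzyme that RA induces, read 6950, 6392 and 6637 in Dox d0 and 312, 259.9 and 241 in RA-labelled d6 (-4.55 ± 0.09, adjusted p = 8e-10). It read 30701, 29345 and 28736 in Dox-labelled d6, so that the RA-labelled arrays were the lowest of all 4 groups, against what their label names. RARRES2, a secreted chemokine named for its response to a retinoid, fell from 576 ± 59.4 to 16.1 ± 2.66 and LRAT, which esterifies retinol, from 382 ± 21.4 to 50.3 ± 13.8.

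RARB, the receptor gene that RA induces, read 92.5, 108 and 118 in Dox d0 and 233, 189 and 239 in RA-labelled d6 (0.95 ± 0.19), against 1971 ± 16.4 in Dox-labelled d6. DHRS3, a retinal reductase induced by RA, fell by 0.61 and was 5532 ± 180 in Dox-labelled d6. Between the day 6 groups 18 of the 27 genes were higher in Dox-labelled arrays and none lower, where 25.9% of all genes were called either way. Against the same Dox d0 arrays, Dox-labelled d6 was higher in 18 of the 27 genes and lower in 2, with a median of 1.18, where 22.2% of all genes were called higher and 23.9% lower. An exchange of the day 6 labels was not tested. Of 28 HOX genes, 6 rose (21.4%), none fell and 22 were not called, where 23.0% of all genes rose. In Dox-labelled d6, by contrast, 12 were higher than in Dox d0 and none lower. HOXB2 read 107, 86.1 and 122 against 267, 263 and 337 (1.34 ± 0.15) and stood at 2661 ± 217 in Dox-labelled d6. HOXB3 rose from 42.6 ± 9.46 to 154 ± 42.6, with its other probe set going the other way uncalled, a call lost with probe sets averaged (0.47, limma adjusted p = 0.0869) and with 1 in place of 16 added (0.0918). HOXC5 (1.41) lost its call in 6 alternatives, among them leaving out Dox d0 replicate 1 or 2 or RA-labelled replicate 1 or 2 (limma adjusted p = 0.0564 to 0.151). HOXB9 rose from 25.0 ± 16.3 to 102 ± 21.8. HOXB1, among the HOX genes that RA induces first, was not called, at 27.5 and 31.8, and stood at 956 ± 149.9 in Dox-labelled d6.

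**Figure D4:**
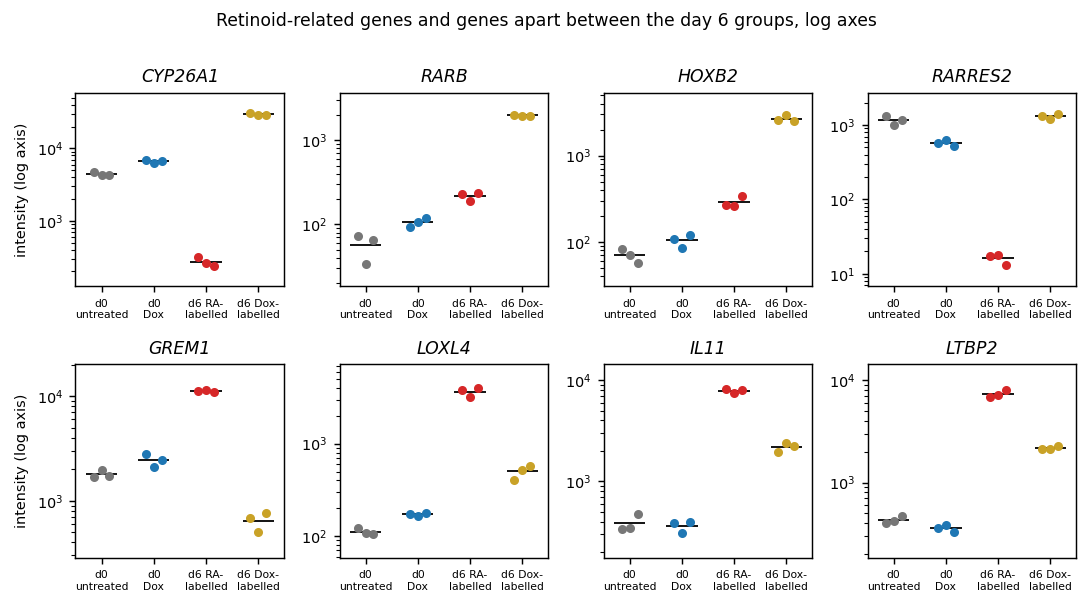
Intensity (log axes) on each array, 3 points per group with the group mean as a line, of 4 genes of the retinoid and HOX lists (top) and 4 genes higher in RA-labelled than in Dox-labelled d6 (bottom). CYP26A1 was 271 in RA-labelled and 29594 in Dox-labelled d6, and GREM1 11168 and 645.

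A set of genes was highest in RA-labelled d6 of all 4 groups. GREM1 read 11192, 11410 and 10901 there and 678, 502 and 755 in Dox-labelled d6 (Dox-labelled minus RA-labelled -4.10, adjusted p = 8.7e-08). LOXL4 stood at 501 ± 88.5 in Dox-labelled d6 (-2.84), IL11 at 2197 ± 218 (-1.83) and LTBP2 at 2169 ± 71.4 (-1.75). TIE1, an endothelial receptor kinase, read 500.5 ± 26.4 in RA-labelled arrays, 49.2 ± 20.2 in Dox d0 and 111 ± 14.7 in Dox-labelled d6. PSG1, a pregnancy-specific glycoprotein, read 404, 431 and 355 in RA-labelled arrays and, on average, 80.8 in Dox d0, 129 in d0 and 25.9 in Dox-labelled d6. PSG1 is 1 of a family of near-identical genes, and its probe set may read others of them.

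Outside the mesenchymal genes, the lineage lists moved both ways, as did all genes, of which 23.0% rose and 25.3% fell. Of 33 cardiac and lateral mesoderm factors, 10 rose (30.3%) and 6 fell (18.2%). GATA6 (2.73) and MEF2C (2.24) led the rises beside HOPX (2.60), whose other 2 probe sets went the other way uncalled. NKX2-5, the early heart factor, was at 10.2 and 19, and MYL7, an atrial light chain, rose from 325 ± 26.9 to 982 ± 239. Of 21 primitive streak genes, 2 rose and 7 fell (median -0.27), and TBXT, the streak factor brachyury, was at 101 and 87.9 without a call. Of 33 endoderm and liver genes, 9 rose (27.3%) and 5 fell (15.2%). AFP, the fetal serum protein, read 116, 106 and 105 in Dox d0 and 2070, 1818 and 664 in RA-labelled d6 (3.46 ± 0.41), and TTR, transthyretin, rose from 50.1 ± 6.49 to 645 ± 389. Their defining transcription factors were not called, with SOX17 at 92.8 and 65.4 and FOXA2 at 68.6 and 41.3.

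Replicate 3 of RA-labelled d6 was the lowest of its group for several of these genes. AFP and TTR were 664 and 229.6 there, and the mesenchymal markers PDGFRA, LUM and COL3A1 were 659, 1006 and 5491, against 1141 and 1159, 2488 and 2248, and 9434 and 8188 in the other 2 arrays. All 5 remained above Dox d0 in each array, though PDGFRA was no longer called with probe sets averaged (0.16, limma adjusted p = 0.345). Without that array the difference of TTR was 3.70, and the fold 13.0 in place of 8.58.

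Of 38 trophoblast and amnion genes, 16 rose and 6 fell. KRT7, a keratin of trophoblast, amnion and other simple epithelia, rose from 134 ± 22.5 to 1831 ± 44.3 (3.63, or 1.05 with probe sets averaged), and GATA3 from 681 ± 25.6 to 2682 ± 139.8. CGA and GCM1, which mark hormone-making trophoblast, stayed at the floor, at 11.1 and 7.56 and at 4.06 and 3.83. For PGF, a placental growth factor, which fell (-0.67), the other probe set rose (1.35). Of 30 endothelial and blood genes, 8 rose (26.7%) and 5 fell (16.7%), where 23.0% of all genes rose and 25.3% fell. ESAM (3.03) and TIE1 (3.04) rose, KDR, the VEGF receptor, fell from 1075 ± 109 to 257 ± 32.7, and the markers PECAM1 and CDH5 did not pass.

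Neural genes fell more often than they rose, with 17 of 41 lower, 3 higher and 21 not called (median -0.47). ZIC2 (-3.94) and OTX2 (-3.55), factors that stem cells share with the early brain, fell most. STMN2, a microtubule regulator of growing axons, rose from 866 ± 44.0 to 10691 ± 961, whereas DCX (-1.77) and PAX6 (-1.24), which mark neuroblasts and neural progenitors, fell. Of 31 neural crest and placode genes, 12 rose (38.7%) and 8 fell (25.8%), where 23.0% of all genes rose and 25.3% fell. SNAI2 and DLX2 (3.71) led the rises, and EDNRB and ERBB3 (-2.65) the falls. Of 3 neural crest markers, 1 was called, FOXD3, which fell from 194 ± 39.5 to 27.1 ± 18.9 (-2.38, or -0.97 with probe sets averaged). SOX10 did not pass, at 65.6 and 23.8. Of 26 germ cell genes, 3 rose and 3 fell (11.5% each, against 23.0% and 25.3% of all genes), among them DAZL and KIT (-3.31).

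Markers of each of these cell types were also summed. The summed intensity of 4 endoderm markers was 291 to 348 in Dox d0 and 968 to 3204 in RA-labelled d6, and that of 9 mesenchyme and smooth muscle markers 35178 to 35967 and 99930 to 111824. That of 3 trophoblast markers was 142 to 163 and 1808 to 1896, with KRT7 the 1 of 3 that rose. For 3 endothelial markers it was 1174 to 1523 and 959 to 1053, and for 2 blood markers 6.18 to 45.7 and 7.74 to 61.7. For 4 neural markers it was 1359 to 1470 and 9950 to 11892, nearly all of it STMN2 in the day 6 group, with PAX6 and DCX lower. For 3 cardiac markers it was 329 to 411 and 744 to 1240, with MYL7 the 1 of 3 that rose, and for 3 neural crest markers 521 to 591 and 349 to 409. That of 7 stem cell markers was 80386 to 84486 and 13532 to 14781. The part of a changed mix of cells in the results was not tested.

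Genes of the integrated stress response, in which ATF4 raises amino acid synthesis and transport, rose. Of 32 measured, 26 rose, 3 fell and 3 were not called, with a median of 1.16. ALDH1L2, a mitochondrial folate enzyme, read 47.5, 49 and 53 in Dox d0 and 1315, 1065 and 1235 in RA-labelled d6 (4.21 ± 0.12). ATF3, an ATF4 target, rose 6.08-fold and TRIB3, a feedback pseudokinase, 4.81-fold. The 3 that fell were CBS (-0.77), PHGDH (-0.62) and AARS1 (-0.37), the last with a call lost in 4 alternatives, among them median centring and leaving out Dox d0 replicate 1 or 2 (limma adjusted p = 0.0504 to 0.0858). HSPA5, the main chaperone of the endoplasmic reticulum, did not pass, at 24775 and 23658.

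Sterol and fatty acid synthesis fell in 19 of 25 genes, with 3 higher and a median of -1.06. INSIG1, a sensor of the SREBP pathway, read 3486, 3806 and 3690 against 858, 801 and 1034 (-2.02 ± 0.12), and ELOVL6, a fatty acid elongase, fell 3.31-fold. SREBF1, the factor of fatty acid synthesis, was 1 of the 3 that rose (0.47). Of 31 glycolysis and hypoxia genes, 17 rose and 6 fell (median 0.29). P4HA2, a collagen prolyl hydroxylase, rose 12.1-fold and NDRG1, a hypoxia-induced gene, 9.48-fold, whereas HK2, a hexokinase, fell 2.95-fold and LDHA did not pass (11866 and 12299).

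Mitochondrial ribosomal proteins, which translate the mitochondrial genome's mRNAs, were lower in the day 6 group in 49 of 66 genes and higher in 2, with a median of -0.40. MRPL11 fell most, from 2303 ± 45 to 730.2 ± 15.8. MRPL40 (0.57) and MRPS11 (0.36) rose, and the other probe set of MRPS11 fell (-0.63). The call of MRPS11 was also lost without Dox d0 replicate 3 or RA-labelled d6 replicate 1 or 2 (limma adjusted p = 0.0527 to 0.0767). Of 18 genes of MHC class I presentation, 8 rose (44.4%) and 4 fell (22.2%), against 23.0% and 25.3% of all genes. B2M rose from 14560 to 21855, while the immunoproteasome subunits PSMB8 (-1.27) and PSMB9 (-1.30) fell.

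DNA methylation and chromatin repressors fell in 16 of 28 genes, rose in 4 and were not called in 8 (median -0.38). TET1, which oxidises methylcytosine, read 4630, 4429 and 5117 against 810, 858 and 769 (-2.52 ± 0.09), whereas its relative TET2 rose from 185 ± 25.2 to 366 ± 37.0. DNMT1, the maintenance methyltransferase, fell from 4337 to 1729. MBD2, a methyl-CpG reader, fell by 3.08 in its representative probe set and rose by 4.09 in another, so its direction depended on the probe set, with -0.48 over their mean.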

How the data were processed

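Affymetrix arrays of 12 samples, 3 in each of 4 groups, were compared. The authors deposited 1 intensity per probe set and array on a linear scale, as judged from the values. The normalization was not named in the sources used here. The mean without the lowest and highest 2% of values was 500.061 to 500.066 on all 12 arrays, so each had been scaled to a shared trimmed mean. Of 54675 probe sets, 41097 had 1 gene symbol, 1801 several and 11777 were not listed. The probe set with the highest mean over all 12 arrays stood for a gene, which left 19775 genes. log2(intensity + 16) of all 12 arrays was fitted with limma 3.58.1 in R 4.3.3, with a mean per group, and called at a Benjamini-Hochberg adjusted p under 0.05. The code was tested on simulated data. Named genes were the 15 largest rises and falls among called, non-overlapping genes whose higher group mean reached the median gene mean (221), so some entered only through the group where they are high, and up to 4 rises and 4 falls of each of 30 lists. Other list members, chosen for their role, and the CCAAT and CHR motifs were picked after values were seen. The members and lists were chosen with earlier results of these data known. Same-numbered arrays deviated together at r = 0.00288, 0.0206 and 0.0245, and differently numbered ones at -0.0236 to 0.00329. Values this small over all genes cannot exclude a pairing. Arrays were treated as unpaired, with a block by replicate number as an alternative. Alternatives were the added value, a low-value filter, scaling, the probe set rule, the block and leaving out each array.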

Additional observations from a re-analysis of the deposited data

How the results depend on the processing

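Testing all 54675 probe sets in place of genes gave 19615 called, 8824 higher and 10791 lower, and 8118 at least 2-fold apart, 3661 higher and 4457 lower. Among the 9888 genes above the median mean, 2332 were at least 2-fold apart, 1147 higher and 1185 lower, with fewer genes tested. Leaving out 1 array at a time gave 8857 to 8894 called, 4195 to 4233 higher and 4628 to 4673 lower, with 3675 to 3718 at least 2-fold apart, 1709 to 1754 higher and 1934 to 1993 lower. With the replicate number as a block, 9450 were called, 4512 higher and 4938 lower, and 3676 were at least 2-fold apart. The block removed the calls of HOXC5, MAEL and VWF and no other among 240 genes. Median centring moved the share of higher among called genes from 47.6% to 56.2%. Averaging a gene's probe sets reversed MRPS11 to -0.14, PDIA3 to 0.17 and PGF to 0.34, and PDGFRA fell short of a call (0.16, limma adjusted p = 0.345). Over 4033 pairs of a gene and an alternative, 3962 kept direction and call, 68 lost the call and 3 reversed. Genes under about 16 in both groups have no order, and the number of arrays limits the smaller differences.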

Other observations

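Several further genes that rose strongly code for regulators of transcription and of the cell surface. ARID5B, a DNA-binding cofactor of a histone demethylase, read 106, 107 and 123 in Dox d0 and 2592, 2500 and 2497 in RA-labelled d6 (4.31 ± 0.08), and 1.37 with probe sets averaged. BNC1, a zinc finger protein of epithelia and mesothelium, rose from 30.7 to 936 ± 10.3. ADGRA2, an adhesion receptor that takes part in WNT7 signalling, rose from 73.8 ± 19 to 2193 ± 235, and FILIP1L, a filamin-binding protein relative, from 82.4 to 1956 ± 37.7. FOXC2, a forkhead factor of mesoderm, read 118, 142 and 158 against 1565, 1784 and 1636 (3.44 ± 0.13). FAS, the death receptor, rose from 417 ± 42.1 to 2399 ± 47.4, and SLC40A1, the iron exporter, from 112 to 995 ± 254.

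Among further genes that fell, DLL1, a Notch ligand, went from 319 ± 18.4 to 22.8 ± 6.06. APLNR, the apelin receptor, went from 285 ± 50.9 to 20 ± 3.95, after 63.5 ± 20.8 in untreated d0. APOC1, an apolipoprotein that is also high in stem cells, fell from 4346 ± 161 to 891 ± 249. CXCR4, the receptor of CXCL12, fell from 526 ± 42 to 168 ± 18.8. DLK1, an imprinted Notch-related protein, fell from 2667 ± 132 to 295 ± 72.3, after 623 ± 48.7 in untreated d0. In each of these 5 genes every RA-labelled d6 array lay below every Dox d0 array. They were picked among the largest falls of their lists, so this separation followed largely from the choice and adds no support. Arrays did not overlap, in either direction, for 55.8% of all genes.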
